A study of Arabidopsis thaliana with 6 samples.

Results

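The genes described here are 44 loci of the heat shock system of Arabidopsis thaliana, out of 22426 loci in the deposited table. They were taken from a list of locus identifiers chosen by function, with earlier results of these data known. Of the 44, 43 have a row in the table, and the small heat shock protein HSP23.5 (AT5G51440) was not analysed here. The list holds HSP101, 11 members of the HSP70 class, 7 of the HSP90 class, 10 small heat shock proteins, 13 heat shock factors, and the regulators DREB2A and MBF1C. The groups were 3 libraries from plants labelled NCBP mutant and 3 libraries from wild type (WT), all from whole 2-week-old seedlings grown at 22 °C under 16 hours of light and 8 hours of dark. NCBP belongs to the eIF4E family of proteins that bind the mRNA cap. The labels do not name the allele or the number of plants in a library, list no heat treatment, and are silent on whether replicates were sown apart. The p-values therefore speak of library-to-library spread, part or all of which may be technical.

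Heat shock proteins are chaperones. HSP70 proteins bind unfolded stretches of client proteins in cycles driven by ATP, HSP90 proteins finish the folding of signalling proteins, small heat shock proteins hold denatured proteins in a soluble state, and HSP101 pulls aggregated proteins apart. In plants the class A1 heat shock factors start the heat response by binding heat shock elements, arrays of the short unit GAA and its complement TTC, before the coding regions of chaperone genes. Some chaperones, the cognate forms, are made at normal temperature, while others are made mainly on heating.

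The NCBP transcript was lower in the libraries labelled as the mutant. It stood at 57.9, 59.2 and 55.8 FPKM (fragments scaled to the length of the gene and to the total of the library) in mutant libraries 1, 2 and 3, against 97.4, 100.4 and 97.9 FPKM in WT libraries 1, 2 and 3. The groups did not overlap, and p was 0.1 in a 2-sided exact permutation test, the minimum for 3 against 3. Of the exonic bases of NCBP, 12.7% are shared with AT5G18100 on the opposite strand, a locus at 59.3 to 62.5 FPKM in the mutant and 44.8 to 48.0 FPKM in WT, and without a stated strand those reads cannot be assigned. The sum of FPKM lay between 979062 and 998737 in the mutant and between 970383 and 1040255 in WT. The absolute depth is unknown, and the precision of a value is known only from the spread between replicates. Markers of leaf and root, both part of a whole seedling, were present: the 4 leaf genes summed to 51866 to 56217 FPKM in the mutant and 48542 to 58555 FPKM in WT, and the 5 root genes to 81.6 to 84.9 FPKM in the mutant and 78.1 to 85.8 FPKM in WT. Of the leaf genes, RCA fell in the mutant (log2 fold change -0.27, limma adjusted p 0.047), and of the root genes, NRT2.1 rose (log2 fold change 0.82, limma adjusted p 0.0333). Among 5 flower genes the largest sum was 4.80 FPKM in the mutant and 5.35 FPKM in WT, and the 3 seed genes in the table summed to at most 0.268 FPKM in the mutant and 0.62 FPKM in WT. In whole seedlings, fewer cells of a type and less RNA per cell cannot be told apart.

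Exact matches to a heat shock element of 3 units were found before the coding region of 14 of the 44 genes (31.8%), against 241 of 17807 genes tested in the table (1.35%). The sets are unlike, because the 44 include 11 genes that were not tested, 4 of them with a match. The letters searched were GAA, NN, TTC, NN and GAA in a row, where N is any base, and on the other strand TTC, NN, GAA, NN and TTC, in the 500 bases of genome before the first annotated coding base. The match nearest the coding region of each gene is shown, 5′ to 3′ on the strand of the gene, with the matched bases in capitals and 8 bases on each side. These sites are shown because the element is the sequence by which heat shock factors act on this family. Sequences and positions are from RefSeq, build TAIR10.1, and were found by locus identifier. Which build lies behind the deposited values is not stated in the sources used here.
HSP70-4, chr3:3993846-3993874, minus strand: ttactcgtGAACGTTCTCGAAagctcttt
HSC70-1, chr5:556554-556582, minus strand: caaccatcGAACATTCTCGAAacatttta
HSC70-2, chr5:552686-552714, minus strand: taattacaGAACATTCTGGAAactcaagt
HSC70-3, chr3:2905765-2905793, minus strand: gagccatcGAACCTTCTCGAAactcgagt
cpHSC70-1, chr4:12589906-12589934, plus strand: atcttctcTTCTCGAAACTTCaagtgggg
cpHSC70-2, chr5:20303341-20303369, plus strand: caaccattTTCTAGAACCTTCcacttctt
HSP90.1, chr5:21352254-21352282, plus strand: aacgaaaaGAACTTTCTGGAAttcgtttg
HSP17.6C, chr1:19980238-19980266, plus strand: caacaccaGAAACTTCTTGAAagcacctg
HSP17.4, chr3:16984865-16984893, minus strand: agaaacctGAAATTTCAAGAAacttgcag
HSP22, chr4:6370379-6370407, plus strand: aaagatatTTCAAGAAACTTCttcattct
HSFA2, chr2:11135528-11135556, plus strand: ttagtaacGAAGTTTCTGGAAcattgtct
HSFA7A, chr3:19264991-19265019, plus strand: aaaaccgtTTCCAGAAGTTTCtaatttct
HSFB2A, chr5:24916058-24916086, plus strand: ctccatagGAAGTTTCTTGAAgcctaaaa
HSFB2B, chr4:7042670-7042698, plus strand: tcctctcaGAACATTCTGGAActtcacaa

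All 4 cytosolic HSP70 genes on the list held such a match, in the same orientation, and 11 of its 13 positions were identical in the 4 genes, where the search itself fixed 9. HSC70-3, HSP17.4 and HSFA7A each held 2 separate matches. Of the 14 sites shown, 5 lay before the annotated start of the gene and 9 inside an annotated leader exon. In the 250 bases before the annotated start, tried first, 5 of 44 genes held a match (HSP17.6C, HSP17.4, HSFA2, HSFA7A and DREB2A). Of the 33 tested genes 2 did, against 0.359% of 17813 windows of genes tested in the table. A match is a run of letters and not a measured binding site.

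**Figure D1:**
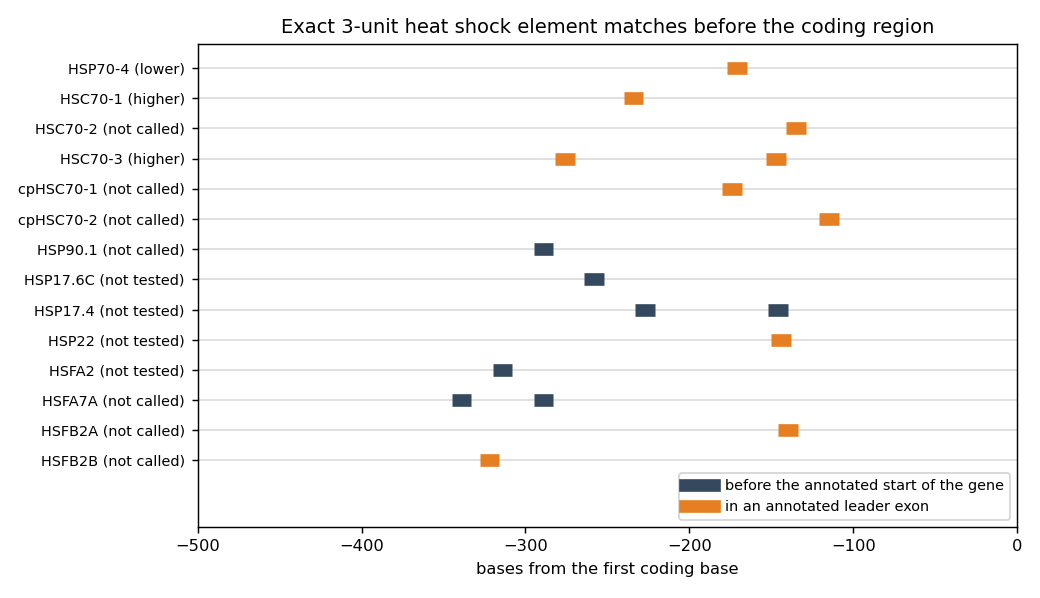
Positions of exact matches to the 3-unit heat shock element in the 500 bases before the first coding base (x axis, in bases, 0 at the first coding base) of the 14 genes that held one, with the outcome of the expression test after each name. Blue bars lie before the annotated start of the gene and orange bars in an annotated leader exon, and no match lies within 100 bases of the coding region.

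Levels covered a wide range in these seedlings, and FPKM is per length, so levels of different genes can be set side by side. HSC70-1, a cytosolic HSP70 made at normal temperature, was the most abundant of the 43 genes and supplied 43.7% to 45.2% of their summed FPKM in the mutant and 36.4% to 37.4% in WT. The plastid cpHSC70-1 came next, at a mean of 114 FPKM in the mutant and 122 FPKM in WT, followed by HSP90.7, the HSP90 of the endoplasmic reticulum, at 86.8 FPKM in the mutant and 93.8 FPKM in WT. At the low end stood the small heat shock proteins: 7 of the 9 in the table had a mean under 1 FPKM over the 6 libraries. HSP21, the small heat shock protein of the chloroplast, was listed at 0 in the 3 mutant libraries and at 0.142, 0 and 0 FPKM in WT libraries 1, 2 and 3. HSFA2, the factor that is made on heating and prolongs the response, stayed under 1 FPKM in each of the 6 libraries.

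**Figure D2:**
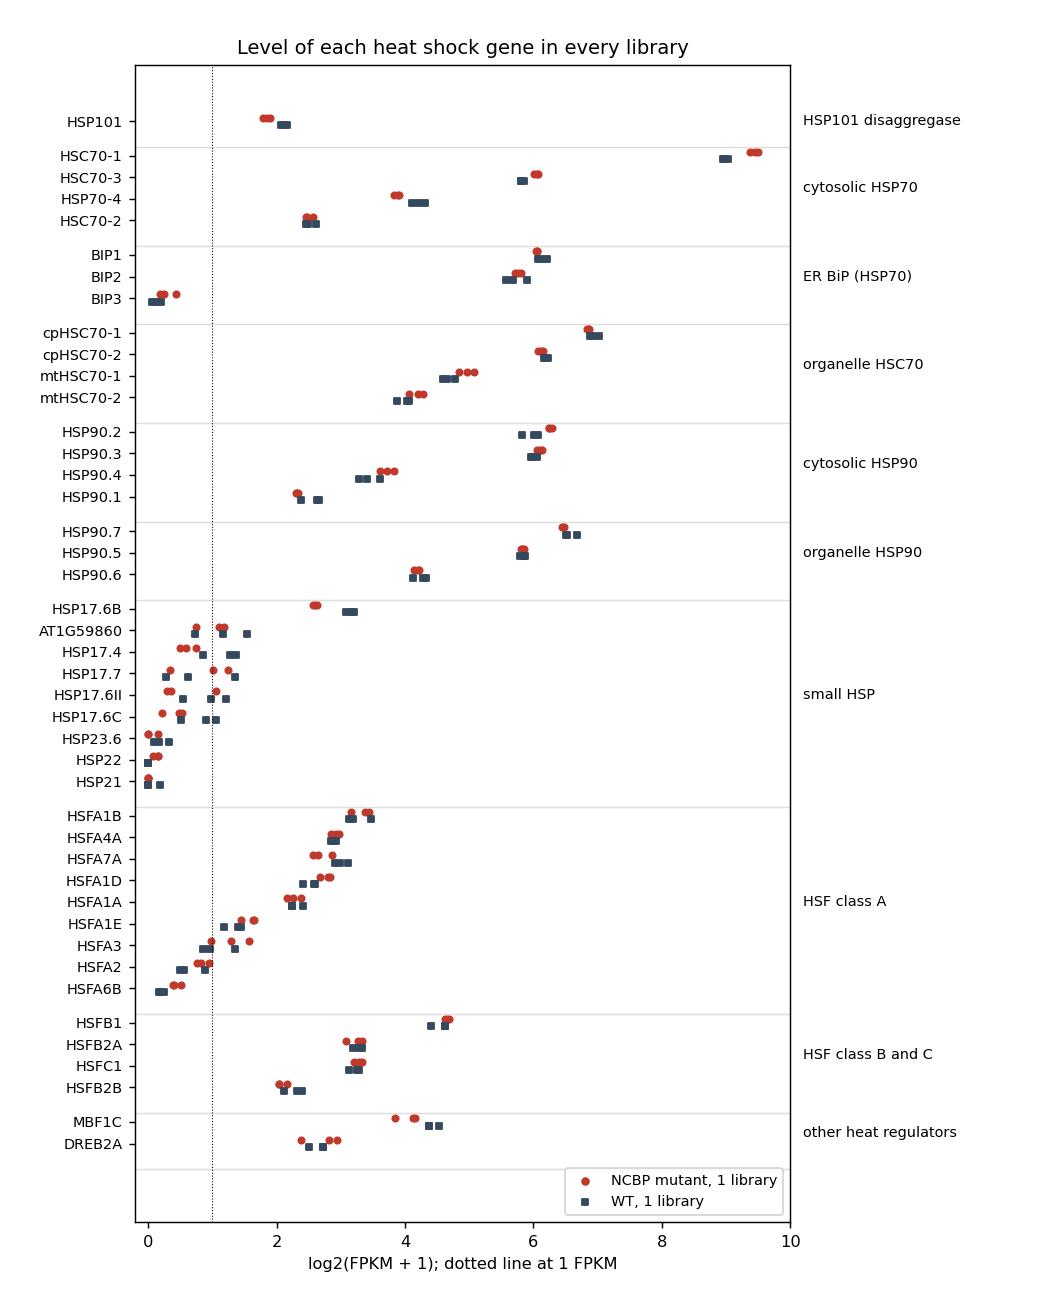
Level of each of the 43 heat shock genes in the table, as log2(FPKM + 1) on the x axis, by family; each red point is 1 mutant library and each blue square below it 1 WT library. HSC70-1 lies farthest to the right, while most small heat shock proteins lie near or under the dotted line at 1 FPKM.

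Genes with a mean of at least 1 FPKM over the 6 libraries were tested as log2(FPKM + 1) with limma, adjusted by the Benjamini-Hochberg method over 18064 genes with a threshold of 0.05, and fold changes are given on this scale, which makes those of low genes too small. Of the 44 heat shock genes 33 passed the filter, and 10 of the 11 others lay under it. In the mutant 4 rose (HSC70-1, HSC70-3, HSP90.2 and mtHSC70-1), 3 fell (HSP17.6B, MBF1C and HSP70-4) and 26 did not pass. The 7 changed genes are 21.2% of the 33, against 14.7% of all genes tested, with 6.27% of all genes higher and 8.44% lower (1133 and 1524 genes, or 1286 and 1100 when each library was rescaled to the same sum). The median log2 fold change was -0.01 over the 33 genes and -0.0034 over all genes tested. The groups did not overlap for 18 of the 33 genes (54.5%), 8 with the mutant above and 10 with it below, against 35.5% of all genes. Because the list was chosen with earlier results of these data known, neither share is independent support for a difference from all genes. Counts by family, given below, rest on few genes and are to be read beside the shares over all genes. Differences were small, and the farthest from 0 was that of HSP17.6B, at -0.55 on the log2 scale. The number of changed heat shock genes was 3 without mutant replicate 1 (7.31% of all genes changed there), 3 without mutant replicate 2 (7.71%) and 5 without mutant replicate 3 (9.97%). It was 4 without WT replicate 1 (10.4% of all genes), 7 without WT replicate 2 (11.1%) and 3 without WT replicate 3 (9.3%). HSC70-1 and HSP17.6B were the 2 that passed under each alternative tried.

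**Figure D3:**
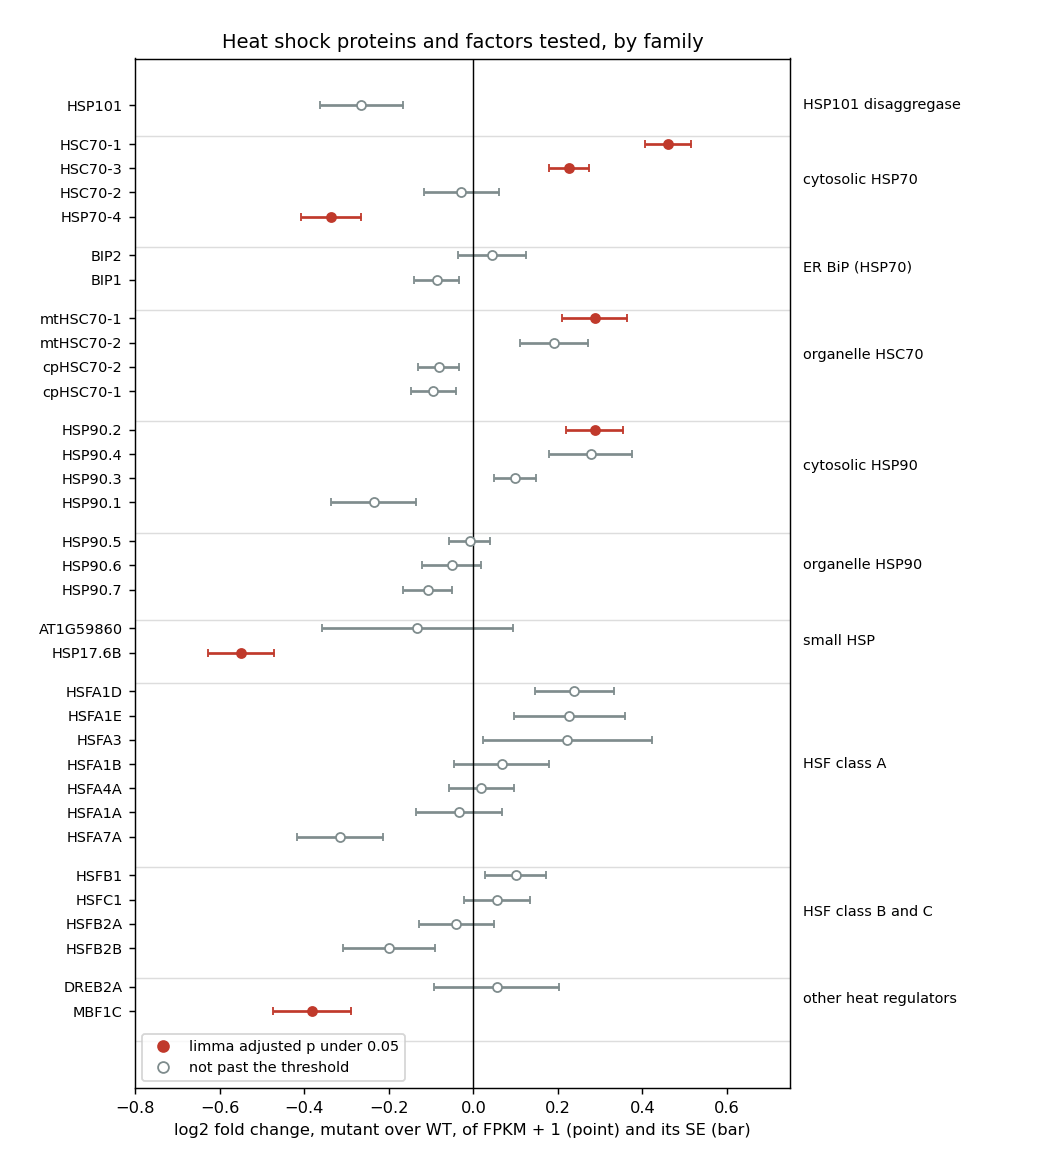
Log2 fold change of FPKM + 1, mutant over WT (x axis), with its SE as a bar, of the 33 heat shock genes tested, by family. Filled red points passed a limma adjusted p of 0.05: 4 lie to the right of 0 and 3 to the left, with HSC70-1 at 0.46 and HSP17.6B at -0.55 the farthest out.

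The cytosolic HSP70 genes moved in both directions. HSC70-1 (AT5G02500) stood at 721, 699 and 664 FPKM in mutant libraries 1, 2 and 3, against 492, 523 and 498 FPKM in WT libraries 1, 2 and 3. The lowest mutant library lay well above the highest WT library. Its level averaged 695 ± 28.5 FPKM in the mutant and 504 ± 16.5 FPKM in WT (SD, n = 3 each), a log2 fold change of 0.46 (SE 0.05) with a limma adjusted p of 0.00188. HSC70-3 (AT3G09440), another cognate form, had 63.6, 65.7 and 66.2 FPKM in the mutant libraries, against 54.9, 56.9 and 54.9 FPKM in the WT libraries. Here too the groups were apart, with a log2 fold change of 0.23 (SE 0.05) and a limma adjusted p of 0.0164.

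HSP70-4 (AT3G12580, HSP70 in RefSeq), a cytosolic form known to be strongly induced by heat, went the other way. It had 13.16, 13.90 and 13.97 FPKM in the mutant libraries, against 16.27, 17.55 and 18.89 FPKM in the WT libraries. The highest mutant library stood below the lowest WT library, with a log2 fold change of -0.34 (SE 0.07) and a limma adjusted p of 0.0167. HSP70-5 (AT1G16030, Hsp70b in RefSeq), outside the list, averaged 3.04 ± 0.337 FPKM in the mutant and 3.36 ± 0.721 FPKM in WT. Its groups overlapped, with a log2 fold change of -0.10 (SE 0.14) and a limma adjusted p of 0.659. Within a library, HSP70-4 was 1.83% to 2.1% of the level of HSC70-1 in the mutant and 3.31% to 3.79% in WT. This ratio follows from the changes of both genes and is not a separate result. HSC70-2, which did not pass, was 0.644% to 0.682% of HSC70-1 in the mutant and 0.92% to 0.981% in WT. That ratio contains the level of HSC70-1, which rose, and is not a separate result either. HSC70-2 (AT5G02490) had means of 4.64 ± 0.223 FPKM in the mutant and 4.76 ± 0.325 FPKM in WT, with overlapping groups and a limma adjusted p of 0.858. The 4 cytosolic HSP70 genes of the list summed to 803, 783 and 749 FPKM in the mutant libraries. In the WT libraries they summed to 567, 602 and 576 FPKM, and most of each sum was HSC70-1. None of the stretches of 50 bases in annotated transcripts of HSC70-1, HSC70-2 and HSP70-4 occurs in another gene, while HSC70-3 shares 18.9% of its exonic bases with AT3G09430 on the opposite strand, a locus listed at no more than 1.91 FPKM in the mutant and 1.92 FPKM in WT. The call of HSC70-3 was lost without mutant replicate 2 (limma adjusted p 0.0655) or 3 (0.0507), and its alternatives spanned 0.0132 to 0.0655. That of HSP70-4 was lost without mutant replicate 1 (0.0603) or WT replicate 3 (0.0516), and its alternatives spanned 0.0115 to 0.0603.

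**Figure D4:**
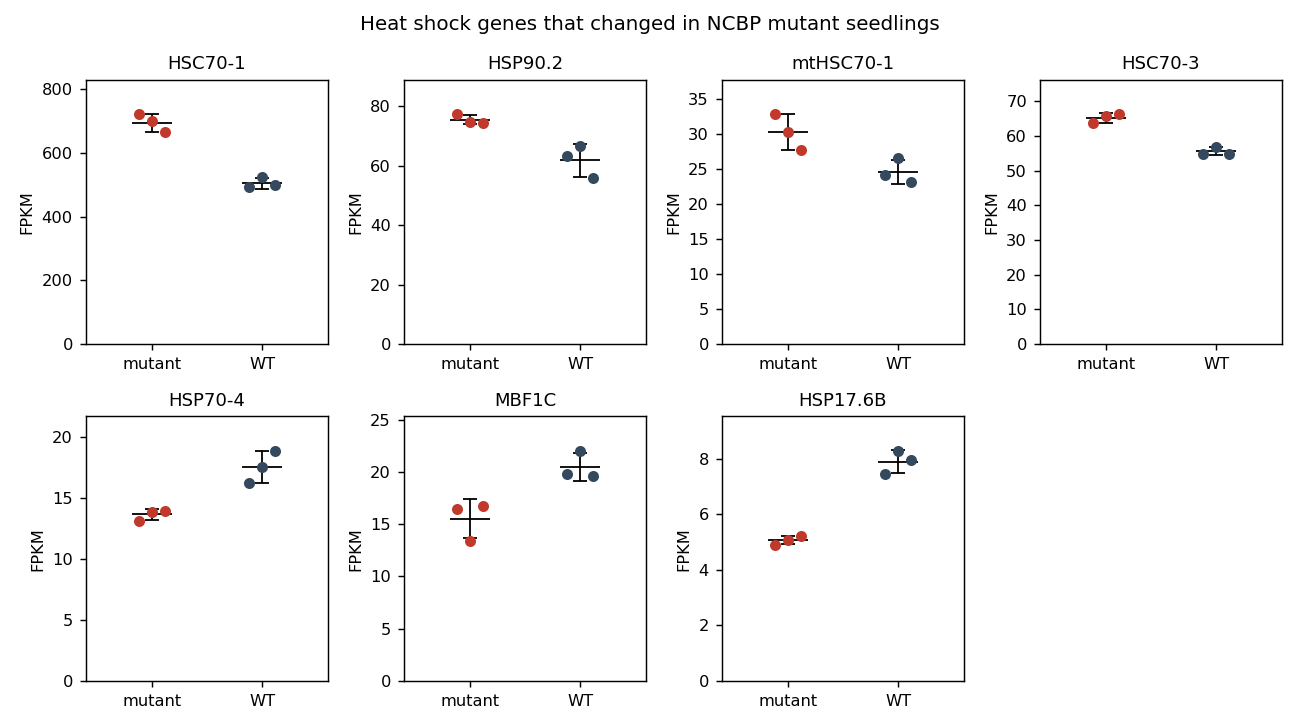
FPKM (y axis, from 0, a different scale in each panel) of the 7 heat shock genes that passed the test, in each mutant library (red) and each WT library (blue), with the mean and SD of the 3 libraries as a line and bar. In each panel the mutant and WT points do not overlap.

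HSP70 proteins of other compartments showed 1 change among the 6 tested. mtHSC70-1 (AT4G37910), a chaperone of the mitochondrial matrix needed for protein import, had 32.83, 30.28 and 27.74 FPKM in the mutant libraries and 24.14, 26.52 and 23.21 FPKM in the WT libraries. Its lowest mutant value lay just above its highest WT value, with a log2 fold change of 0.29 (SE 0.08) and a limma adjusted p of 0.0401. Its mitochondrial partner mtHSC70-2 (AT5G09590) averaged 17.1 ± 1.32 FPKM in the mutant and 14.9 ± 1.12 FPKM in WT and did not pass (limma adjusted p 0.147); it shares 16.3% of its 50-base stretches with AT4G32208. In the plastid pair each mutant library lay below each WT library, but neither gene passed. cpHSC70-1 (AT4G24280) had 114 ± 1.27 FPKM in the mutant and 122 ± 6.54 FPKM in WT, with a limma adjusted p of 0.259, and cpHSC70-2 (AT5G49910) had 68.2 ± 2.08 FPKM in the mutant and 72.2 ± 1.69 FPKM in WT, with a limma adjusted p of 0.292. The call of mtHSC70-1 was lost without mutant replicates 1 (limma adjusted p 0.125) or 2 (0.106), without WT replicates 1 (0.1001) or 3 (0.114) and with no filter on low values (0.0614), and its alternatives spanned 0.03 to 0.125.

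The BiP proteins are the HSP70 of the endoplasmic reticulum. BIP1 (AT5G28540) averaged 65.2 ± 0.169 FPKM in the mutant and 69.4 ± 3.55 FPKM in WT, and BIP2 (AT5G42020) 53.3 ± 1.66 FPKM in the mutant and 51.9 ± 6.21 FPKM in WT. Neither passed, with a limma adjusted p of 0.299 for BIP1, whose groups were apart, and of 0.752 for BIP2, whose groups overlapped. BIP1 and BIP2 share 22.9% and 23.0% of their 50-base stretches, and the sources used here do not give how reads that fit both were assigned. BIP3 (AT1G09080), the form known to be induced by unfolded proteins, was under the filter and had 0.143, 0.191 and 0.355 FPKM in the mutant libraries and 0.0883, 0.041 and 0.151 FPKM in the WT libraries, and its groups overlapped.

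Among the cytosolic HSP90 genes, HSP90.2 rose. HSP90.2 (AT5G56030), a form made at normal temperature that stabilizes immune receptors, had 77.3, 74.6 and 74.5 FPKM in the mutant libraries, against 63.2, 66.5 and 55.8 FPKM in the WT libraries. The mutant libraries lay close together above a wider WT group, with a log2 fold change of 0.29 (SE 0.07) and a limma adjusted p of 0.025. HSP90.3 (AT5G56010) averaged 67.4 ± 1.74 FPKM in the mutant and 62.9 ± 2.18 FPKM in WT (limma adjusted p 0.223), and HSP90.4 (AT5G56000) 12.2 ± 0.993 FPKM in the mutant and 9.90 ± 1.24 FPKM in WT (limma adjusted p 0.0936). HSP90.1 (AT5G52640), the heat-induced cytosolic form, had 4.01, 3.96 and 4.05 FPKM in the mutant libraries and 4.22, 5.22 and 5.30 FPKM in the WT libraries, a log2 fold change of -0.24 (SE 0.10) that did not pass (limma adjusted p 0.153).

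HSP90.1 stood at 5.18% to 5.43% of the level of HSP90.2 in the mutant and at 6.68% to 9.49% in WT. The differences of both genes enter this ratio, so it is not a separate result. HSP90.2, HSP90.3 and HSP90.4 lie near each other on chromosome 5 and share 18.0%, 23.9% and 18.7% of their 50-base stretches with other genes, mainly with each other, so part of their reads can be split between them. The call of HSP90.2 was lost without mutant replicates 1 (limma adjusted p 0.082), 2 (0.0712) or 3 (0.0568) and without WT replicates 1 (0.0513) or 3 (0.0502), and its alternatives spanned 0.0111 to 0.082. HSP90.4 passed when WT replicate 2 was left out (0.0459, range 0.0459 to 0.247).

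None of the 3 HSP90 genes of organelles passed. HSP90.5 (AT2G04030), of the chloroplast, averaged 55.9 ± 0.861 FPKM in the mutant and 56.2 ± 1.61 FPKM in WT. HSP90.6 (AT3G07770), of the mitochondrion, had 17.3 ± 0.521 FPKM in the mutant and 18.0 ± 1.36 FPKM in WT, and their limma adjusted p were 0.922 and 0.663. HSP90.7 (AT4G24190), known as SHEPHERD and needed to fold the receptor proteins of the CLAVATA pathway, averaged 86.8 ± 1.33 FPKM in the mutant and 93.8 ± 6.57 FPKM in WT, with the mutant below WT in each library and a limma adjusted p of 0.248. HSP101 (AT1G74310), which gives seedlings tolerance of severe heat, had 2.61, 2.46 and 2.74 FPKM in the mutant libraries, against 3.35, 3.18 and 3.46 FPKM in the WT libraries. The groups were apart, but the log2 fold change of -0.26 (SE 0.10) did not pass, at a limma adjusted p of 0.108.

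Of the 10 small heat shock proteins on the list only 2 were abundant enough to be tested, and 1 fell. HSP15.7 and HSP17.8, which are outside the list, are given further on. HSP17.6B (AT2G29500), a cytosolic class I form, had 4.90, 5.08 and 5.22 FPKM in the mutant libraries, against 7.45, 8.28 and 7.94 FPKM in the WT libraries. The mutant stood at 64.2% of WT with no overlap, a log2 fold change of -0.55 (SE 0.08) and a limma adjusted p of 0.00378, the largest of the changes among the 33 genes. AT1G59860, another class I form, had 0.675, 1.146 and 1.276 FPKM in the mutant libraries and 1.92, 1.24 and 0.651 FPKM in the WT libraries, so that its replicates overlapped widely (limma adjusted p 0.733).

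The other 7 small heat shock proteins of the list with a row in the table lay under the filter and are given as values. HSP17.4 (AT3G46230), of class I, had 0.499, 0.68 and 0.405 FPKM in the mutant libraries and 1.41, 0.813 and 1.58 FPKM in the WT libraries, with no overlap, but 62.6% of its exonic length is shared with AT3G07365 on the opposite strand, a locus not analysed here. HSP17.6C (AT1G53540), also of class I, had 0.393, 0.166 and 0.447 FPKM in the mutant libraries and 0.877, 1.09 and 0.419 FPKM in the WT libraries. The groups overlapped for HSP17.6C, and likewise for the class II forms HSP17.6II (AT5G12020) and HSP17.7 (AT5G12030), whose values ran between 0.229 and 1.37 FPKM in the mutant and between 0.209 and 1.57 FPKM in WT. HSP23.6 (AT4G25200), of the mitochondrion, had listed values of 0, 0.119 and 0 FPKM in the mutant libraries and of 0.0694, 0.257 and 0.119 FPKM in the WT libraries. HSP22 (AT4G10250), of the endoplasmic reticulum, had 0.111, 0.118 and 0.0518 FPKM in the mutant libraries and was listed at 0 in the 3 WT libraries. How many reads lie behind values this low is unknown, and a listed 0 can also be a failed estimate.

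None of the 11 heat shock factors tested passed the threshold in limma, against 14.7% of all genes tested. With so few genes, 0 is not read as a difference from that share. Among the 11, 2 had an unadjusted p under 0.05, and the share of all genes at that level was not counted. The class A1 factors, which start the response, are HSFA1A, HSFA1B, HSFA1D and HSFA1E. HSFA1D (AT1G32330) had 5.99, 5.36 and 6.15 FPKM in the mutant libraries, against 4.98, 5.06 and 4.34 FPKM in the WT libraries. The groups were apart, with a log2 fold change of 0.24 (SE 0.09) and a limma adjusted p of 0.122. HSFA1E (AT3G02990) averaged 1.99 ± 0.214 FPKM in the mutant and 1.56 ± 0.241 FPKM in WT, also without overlap (limma adjusted p 0.281). HSFA1A (AT4G17750) and HSFA1B (AT5G16820) overlapped between groups, at means of 3.82 and 9.07 FPKM in the mutant and 3.93 and 8.62 FPKM in WT.

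HSFA7A (AT3G51910), a factor known to be induced by heat, had the log2 fold change farthest from 0 among the 11 factors of the list that were tested. It had 4.92, 6.27 and 5.28 FPKM in the mutant libraries, against 6.56, 6.97 and 7.64 FPKM in the WT libraries, a log2 fold change of -0.31 (SE 0.10) with a limma adjusted p of 0.0724. HSFA4A (AT4G18880) averaged 6.53 ± 0.335 FPKM in the mutant and 6.43 ± 0.206 FPKM in WT. HSFA3 (AT5G03720), a target of DREB2A, had 1.46 ± 0.504 FPKM in the mutant and 1.11 ± 0.399 FPKM in WT, with overlap.

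HSFA2 (AT2G26150) and HSFA6B (AT3G22830) lay under the filter. HSFA2 had 0.932, 0.687 and 0.778 FPKM in the mutant libraries and 0.472, 0.851 and 0.413 FPKM in the WT libraries. HSFA6B, which acts in the abscisic acid response, had 0.421, 0.324 and 0.313 FPKM in the mutant libraries and 0.185, 0.139 and 0.126 FPKM in the WT libraries, so that its groups did not overlap at a level too low for the test.

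HSFB1 (AT4G36990) and HSFB2B (AT4G11660) belong to class B, whose members can repress heat shock genes. HSFB1 was the most abundant factor, at 24.2 ± 0.568 FPKM in the mutant and 22.5 ± 2.03 FPKM in WT, above the range of each other factor. HSFB2B had 3.24 ± 0.229 FPKM in the mutant and 3.88 ± 0.478 FPKM in WT, and HSFB2A (AT5G62020) had 8.43 ± 0.844 FPKM in the mutant and 8.68 ± 0.506 FPKM in WT. HSFC1 (AT3G24520), the single class C member, averaged 8.68 ± 0.445 FPKM in the mutant and 8.33 ± 0.545 FPKM in WT, but 96.7% of its exonic length is shared with AT3G24518 on the opposite strand, not analysed here. Without a stated strand those reads cannot be assigned to either gene. The limma adjusted p of these 4 genes lay between 0.253 and 0.796. Next in the order of levels came HSFA1B, HSFB2A and HSFC1, whose group means lay between 8.33 and 9.07 FPKM and whose libraries overlapped.

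MBF1C fell. MBF1C (AT3G24500), a transcriptional coactivator needed for tolerance of heat, had 16.4, 13.4 and 16.8 FPKM in the mutant libraries, against 19.8, 22.0 and 19.6 FPKM in the WT libraries. Mutant library 2 was the lowest of the 6, and the groups did not overlap, with a log2 fold change of -0.38 (SE 0.09) and a limma adjusted p of 0.0271. DREB2A (AT5G05410), a regulator of drought and heat genes, had 6.64, 4.18 and 6.02 FPKM in the mutant libraries and 5.64, 4.66 and 5.59 FPKM in the WT libraries, with overlap and a limma adjusted p of 0.835. The exons of MBF1C share 14.6% of their length with AT3G04685 on the opposite strand, not analysed here. The call of MBF1C was lost without mutant replicates 1 (limma adjusted p 0.0519) or 2 (0.0663), without WT replicates 1 (0.056), 2 (0.076) or 3 (0.0546), and its alternatives spanned 0.0191 to 0.076.

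Set beside the elements shown above, the changed genes were mixed. An exact 3-unit match lay before the coding region of 2 of the 4 genes that rose (HSC70-1 and HSC70-3), of 1 of the 3 that fell (HSP70-4), of 7 of the 26 that did not pass and of 4 of the 11 that were not tested. HSP90.2, mtHSC70-1, HSP17.6B and MBF1C held no exact match in that window.

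The wider folding machinery was read from 71 other genes in 5 lists, of which 62 were tested. Of these, 3 rose, 2 fell and 57 did not pass, so that 8.06% changed, against 14.7% of all genes, and the median log2 fold change was 0.01. Counts for single lists rest on few genes and are to be read beside that share of all genes. Among 19 co-chaperones of HSP70 and HSP90, 0 rose and 1 fell: J3 (AT3G44110), a DnaJ protein that stimulates HSP70, had 92.0 ± 1.69 FPKM in the mutant and 105 ± 1.67 FPKM in WT (log2 fold change -0.19, SE 0.04, limma adjusted p 0.0232). HOP3, a heat-induced adaptor between HSP70 and HSP90, had 3.68, 4.18 and 4.28 FPKM in the mutant libraries and 4.66, 6.23 and 5.81 FPKM in the WT libraries, apart but short of the threshold (limma adjusted p 0.059). The groups did not overlap for 7 of the 19 co-chaperones (36.8%, against 35.5% of all genes), 2 with the mutant above and 5 with it below.

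Among 11 tested genes of other heat-responsive chaperones and protectants, 1 rose and 1 fell. HSP15.7 (AT5G37670), a small heat shock protein of the peroxisome, had 1.63, 2.04 and 1.2 FPKM in the mutant libraries, against 3.89, 2.55 and 3.17 FPKM in the WT libraries. The groups were apart, with a log2 fold change of -0.68 (SE 0.16) and a limma adjusted p of 0.0275. HSP17.8 (AT1G07400), also a small heat shock protein, had 1.93, 2.04 and 3.75 FPKM in the mutant libraries and 1.87, 1.64 and 2.23 FPKM in the WT libraries. Its groups overlapped, with a log2 fold change of 0.26 (SE 0.19) and a limma adjusted p of 0.397. HSP70-14 (AT1G79930), an HSP110-type relative of HSP70, averaged 35.2 ± 1.95 FPKM in the mutant and 28.5 ± 1.73 FPKM in WT (log2 fold change 0.30, SE 0.07, limma adjusted p 0.0201). It shares 10.3% of its 50-base stretches with HSP70-15, whose groups overlapped.

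Of the 4 other heat shock factors tested, HSFB4 rose. HSFB4 (AT1G46264), known for its part in root stem cell divisions, had 9.0, 9.63 and 8.64 FPKM in the mutant libraries, against 5.65, 7.22 and 6.15 FPKM in the WT libraries, with a log2 fold change of 0.46 (SE 0.10) and a limma adjusted p of 0.0158. Of the 5 root markers, NRT2.1 passed the test as higher and 0 as lower. The groups did not overlap for NRT2.1 and COBL9, both with the mutant above (40% of the 5, against 35.5% of all genes). COBL9 did not pass (limma adjusted p 0.194). The log2 fold change was -0.07 for CASP1, the most abundant of the 5, and -0.003 for EXPA7. Over the 5 markers the median log2 fold change was 0.21. Their summed level overlapped between groups, as given above, and the part of tissue make-up in the difference of HSFB4 was not tested. Among 11 organelle chaperonins 1 rose, HSP60-2 (AT2G33210), a mitochondrial chaperonin, at 13.8 ± 0.778 FPKM in the mutant and 11.1 ± 0.961 FPKM in WT (log2 fold change 0.30, SE 0.08, limma adjusted p 0.0385). Its relative HSP60 (AT3G23990) averaged 33.4 ± 2.22 FPKM in the mutant and 28.6 ± 2.23 FPKM in WT and did not pass (limma adjusted p 0.0816). None of 17 tested genes of the unfolded protein response passed in limma, against 14.7% of all genes tested. Among the 17, 3 had an unadjusted p under 0.05, and the share of all genes at that level was not counted. Their smallest limma adjusted p was that of SDF2 (AT2G25110), at 37.5 ± 0.983 FPKM in the mutant and 42.1 ± 1.65 FPKM in WT (0.0777).

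**Figure D5:**
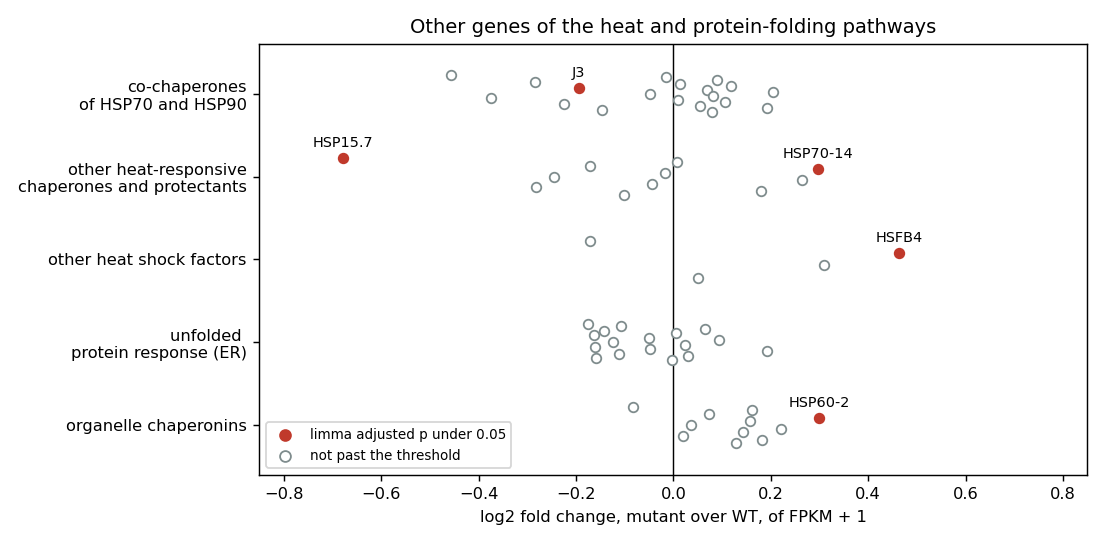
Log2 fold change of FPKM + 1, mutant over WT (x axis), of 62 other genes of the heat and protein-folding pathways, 1 point a gene, in 5 lists. The 5 named red points passed a limma adjusted p of 0.05; points are spread vertically within a list only to keep them apart.

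None of these 5 calls held in all the alternatives. Without mutant replicate 1, limma called 0 of the other folding genes and 7.31% of all genes tested. There 15 of the folding genes had an unadjusted p under 0.05, and the share of all genes at that level was not counted. The number called, with genes that passed only there included, was 2 without mutant replicate 2 (7.71% of all genes) and 2 without mutant replicate 3 (9.97%). It was 3 without WT replicate 1 (10.4% of all genes), 4 without WT replicate 2 (11.1%) and 2 without WT replicate 3 (9.3%). The largest adjusted p over the alternatives was 0.0986 for J3, 0.0833 for HSP15.7, 0.0713 for HSP70-14, 0.0585 for HSFB4 and 0.126 for HSP60-2.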

How the data were processed

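RNA from whole seedlings was sequenced in 6 libraries, for which the authors deposited 1 table of FPKM. The submitters' processing notes list HISAT2, with no version; build, annotation, strand setting, depth and the source of the FPKM are not stated in the sources used here. Because the deposited FPKM hold 42 to 46 values per library above 0 but under 0.001, they are estimates rather than whole reads, and count models were left out. Since FPKM is relative to a library's total, a shift in abundant genes moves the others.

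Columns were assigned by label. Values were analysed as log2(FPKM + 1) by limma (3.58.1; R 4.3.3), 2-sided, with a variance trend on the mean; the step was tested on simulated data. Shared stretches, overlaps and element matches used RefSeq TAIR10.1, which matched 22053 of 22107 nuclear loci. Full values are given for changed genes and the most abundant of each family, and for up to 4 changed genes of each other list, or the gene with the smallest p. The members and lists were chosen with earlier results of these data known. HOP3, HSP60, the 500-base window and the ratios between genes were chosen after values were seen. The alternatives tried (pseudocount, filter, scaling, block, moderation and each library left out) are given below.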

Additional observations from a re-analysis of the deposited data

How the results depend on the processing

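The count of changed genes in the whole table (2657) lay between 1321 and 1997 when 1 library was left out, and that of heat shock genes (7) between 3 and 7. The same 7 passed with pseudocounts of 0.1 and 5, with a filter at 5 FPKM, with libraries rescaled to equal sums, with median-ratio scaling and with robust moderation. Equal sums gave 53.9% of calls over all genes as higher, against 42.6% as deposited. With no filter 6 of the 7 passed, and with a replicate block 6. The count of other folding genes (5) lay between 0 and 4 when 1 library was left out, and was 2 with the replicate block, of which HSFB4 was 1 of the 5. The block ended the calls of J3 (limma adjusted p 0.0589), HSP15.7 (0.0544), HSP70-14 (0.0524) and HSP60-2 (0.064), and of the 7 heat shock genes that of MBF1C (0.0608). Deviations of same-numbered libraries had correlations of 0.0705, -0.0716 and -0.0596, and not every library correlated best with its own number. The largest correlation of a mutant with a WT library was 0.134, between mutant library 3 and WT library 2. With 3 libraries in each group these values cannot settle whether the numbers pair libraries, and the labels do not say. Leaving out a library fits fewer samples; the cause of other changes was not tested. The NCBP log2 fold change lay between -0.78 and -0.73 throughout. Directions turned only for genes that did not pass: HSP90.5 was at 0.0177 with equal sums and between -0.0324 and 0.00402 when 1 library was left out. Under the same omission HSC70-2 lay between -0.0611 and 0.017, BIP2 between -0.0261 and 0.14, AT1G59860 between -0.34 and 0.000819, HSFA1A between -0.0881 and 0.021, HSFA4A between -0.0118 and 0.0523, HSFB2A between -0.0927 and 0.0338 and DREB2A between -0.0587 and 0.22. Depth is unknown, so for genes under 1 FPKM the values cannot show small differences.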
